A study of Homo sapiens with 12 samples.

Results

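The chaperone genes described here were taken by symbol from the count table of an actinomycin D time course: the HSP90, HSP70 (HSPA), HSP110 (HSPH), small heat shock protein (HSPB), HSPD and HSPE genes, the J-protein genes (DNAJA, DNAJB and DNAJC), the CCT genes and TCP1. Symbols with a hyphen (8 readthrough or antisense symbols) and names of pseudogenes (5 symbols) were left out. This gave 84 of the 26334 symbols in the table, of which 66 had a mean of at least 10 counts per library and were tested among 12032 genes. The 18 others were CCT6B, CCT8L2, DNAJA4, DNAJB3, DNAJB7, DNAJB8, DNAJB13, DNAJC28, DNAJC5B, DNAJC5G, HSPA1L, HSPA7, HSPA12B, HSPB2, HSPB3, HSPB6, HSPB7 and HSPB9; 4 of them were listed at 0 in all 12 libraries and the highest single count among the rest was 21. HSPB11 entered by its symbol, although it encodes an intraflagellar transport protein (IFT25) and not a chaperone.

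The cells were A673, an established Ewing sarcoma line, under the label shA673-1c, grown in medium with blasticidin and zeocin and treated with 5 µM actinomycin D, an inhibitor of transcription, for 0, 1, 2 or 4 h. Each time point had 3 biological replicates by the labels, so that 12 poly(A)-selected RNA-Seq libraries were compared and the 0 h samples served as the starting level. The letters CTL stood in the labels of all 12 libraries, not of the 0 h samples alone. What the prefix and suffix of the line's name stand for is not given in the sources used here. P-values measure the spread between these samples, in a fit that does not pair the replicates unless a replicate block is named.

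Library totals ranged from 9147018 to 11194705 counts, and no 2 libraries of the same hour agreed within sampling noise (chi-square divided by its degrees of freedom between 3.21 and 8.67). Of 8 Ewing sarcoma markers 7 were detected in every library and CD99 was listed at 0 in all of them, while the 4 endothelial markers PECAM1, VWF, CDH5 and TEK had at most 6 counts in any library. No spike-in was used, and in such bulk samples fewer cells and less RNA per cell cannot be told apart. All levels below are CPM values, the counts of a gene relative to the library's total, after TMM scaling, and a slope is the fitted log2 change per hour, so every rise or fall is relative to the bulk of the transcripts that remained.

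Chaperones bind unfolded or partly folded proteins and help them to reach or keep their native state. HSP70 proteins do this in cycles of ATP hydrolysis that J-proteins start and direct to particular clients, whereas HSP90 acts on kinases, receptors and other proteins that are nearly folded, and the ring-shaped chaperonins (TRiC in the cytosol, HSPD1 with its lid HSPE1 in mitochondria) enclose their substrates. Many of these genes are induced by heat shock factor 1 (HSF1), others by the unfolded protein response of the endoplasmic reticulum (ER), and a large part is expressed at all times.

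Under TMM scaling, though not with GAPDH plus ACTB as the reference, all 3 HSP90 genes, 7 of the 8 tested TRiC genes and both mitochondrial chaperonin genes rose relative to the other transcripts. With library totals the HSP90 genes and 5 TRiC genes were still called, and the mitochondrial chaperonin genes were not. With GAPDH plus ACTB 2 HSP90 genes, 7 TRiC genes and 1 mitochondrial chaperonin gene were called falling (64.2% of all tested genes were). The falls under TMM scaling were those of 11 J-protein genes and 2 HSP70 genes. With edgeR's quasi-likelihood test and Benjamini-Hochberg adjustment over all tested genes, 13 of the 66 tested chaperone genes fell (19.7%) and 24 rose (36.4%), while 29 did not pass. Among all 12032 genes tested, 32.1% fell and 30.7% rose. The median slope of the chaperone genes was 0.020 log2 per hour, against 0.0093 for all tested genes, and was 0.024, 0.018 and 0.0086 in the 3 replicates taken alone. All 13 falling genes had a falling slope in each of the 3 replicates, and all 24 rising genes a rising one. The calls came from these same libraries, so that is not separate support. With library totals 20 chaperone genes fell (30.3%) and 12 rose (18.2%), among 39.1% falling and 18.7% rising of all tested genes. With GAPDH plus ACTB as the reference, 52 chaperone genes fell (78.8%) and 0 rose by edgeR (also 0 at an unadjusted p below 0.05), among 64.2% falling and 0.931% rising of all, and the median of all tested genes moved to -0.13 log2 per hour. The share of chaperone genes that rose thus lay above the share of all genes under TMM scaling alone of these 3 scalings. The 13 falls were called under each of the scalings tried.

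**Figure D1:**
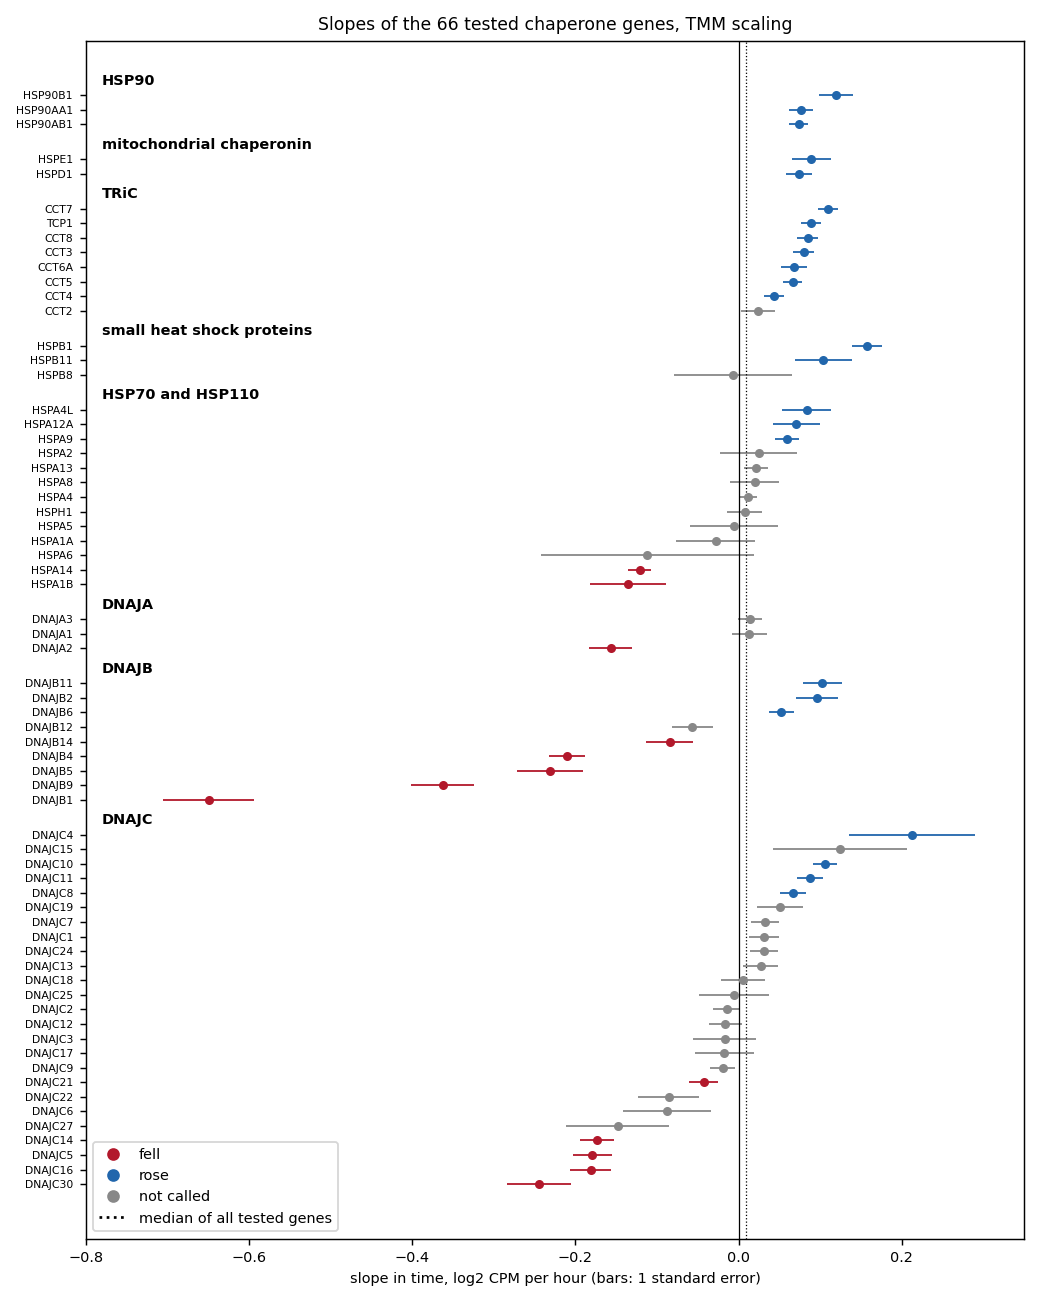
Slope in time (x axis, log2 CPM per hour) of each of the 66 tested genes, grouped by family, with bars of 1 standard error; red points fell, blue points rose and grey points did not pass an adjusted p of 0.05 (edgeR). HSP90, mitochondrial chaperonin and TRiC genes lie to the right of 0 under TMM scaling and to its left when scaled to GAPDH plus ACTB, and DNAJB1 at -0.65 lies far to the left of all the others.

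At 4 h against 0 h, tested as groups, 15 chaperone genes were lower (31.6% of all tested genes were) and 24 were higher (28.7% of all). The 2 genes that this added to the falling ones were DNAJC22 and DNAJC27. In 13 of the 66 genes all 3 libraries at 4 h were below the 3 at 0 h, and in 26 they were all above; among all tested genes these shares were 33% and 30.4%.

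DNAJB1, the main heat-inducible J-protein partner of cytosolic HSP70, had the steepest fall. Its level was 130.5, 131 and 121 CPM at 0 h, 115, 120 and 97.7 CPM at 1 h, 78.6, 62.7 and 62.2 CPM at 2 h, and 30.4, 20.2 and 14.9 CPM at 4 h in replicates 1, 2 and 3. Every library at 2 h was below every library at 1 h, and every library at 4 h below those at 2 h. The slope was -0.65 ± 0.056 log2 per hour (SE, n = 12; adjusted p = 5.62e-08, edgeR), rank 253 of the 12032 tested genes from the steepest fall. For a straight line over all times under TMM scaling, this equals a half-life of 1.54 h (1.42 to 1.69 h within 1 SE). That range does not cover the choice of scaling. In a paired fit with a replicate block, DNAJB1 fell more slowly in the first hour than later (difference 0.58 ± 0.087 log2 per hour, adjusted p = 3.9e-05, edgeR). Under TMM scaling 17.1% of the 0 h level was left at 4 h.

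DNAJB9 (ERdj4), an ER J-protein of the unfolded protein response, came next. It had 15.1, 18.5 and 17.8 CPM at 0 h, 13.1, 13.8 and 11.3 CPM at 1 h, 12.02, 11.5 and 7.84 CPM at 2 h, and 5.81, 6.58 and 6.05 CPM at 4 h. The groups at 0 h and 4 h did not overlap, and the 4 h libraries lay close together. Its slope was -0.36 ± 0.039 log2 per hour (SE; adjusted p = 5.77e-07, edgeR). The half-life from this slope was 2.76 h, again relative to TMM scaling.

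DNAJB4, a heat-inducible cytosolic J-protein, had 42.2, 43.8 and 41.4 CPM at 0 h and 25.6, 24.9 and 21.3 CPM at 4 h (slope -0.21 ± 0.022 log2 per hour, adjusted p = 5.06e-07, edgeR). DNAJB5, a related J-protein, went from 9.93, 11.4 and 10.8 CPM to 6.04, 4.26 and 6.39 CPM (slope -0.23 ± 0.040, adjusted p = 1.03e-04, edgeR). DNAJB14, an ER membrane J-protein, was the fifth falling DNAJB gene, with a slope of -0.085 ± 0.028 (adjusted p = 0.0162, edgeR), but without replicate 2 its adjusted p was 0.073. With a replicate block it was 2.58e-04 (edgeR). In contrast, DNAJB2, DNAJB6 and DNAJB11 rose, so that the DNAJB genes held both the steepest falls and rises of up to 0.10 log2 per hour. DNAJB11 (ERdj3), a soluble ER cofactor of BiP, had 221, 264 and 214 CPM at 0 h and 286, 346 and 278 CPM at 4 h, without overlap. Scaled to GAPDH plus ACTB, all 9 tested DNAJB genes had slopes below 0.

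Of the 25 tested DNAJC genes 5 fell, 4 rose and 16 did not pass, with slopes of the last from -0.15 (DNAJC27) to 0.12 (DNAJC15). DNAJC30, a mitochondrial J-protein encoded in 1 exon, fell from 9.44, 9.26 and 9.42 CPM to 4.62, 5.32 and 4.37 CPM (slope -0.24 ± 0.039 log2 per hour, adjusted p = 4.18e-05, edgeR). DNAJC16, an ER membrane J-protein, DNAJC5 (cysteine string protein, a J-protein of secretory vesicles) and DNAJC14 had slopes of -0.18, -0.18 and -0.17 log2 per hour, and in each of them the 4 h libraries were all below those at 0 h. DNAJC21, a ribosome biogenesis factor, fell slightly (-0.043 ± 0.018, adjusted p = 0.0442, edgeR), a call that was lost without replicate 1 or replicate 3, where the adjusted p was 0.196 and 0.125. A replicate block kept the call (adjusted p = 0.0263, edgeR). Among the DNAJA genes DNAJA2, a cytosolic HSP70 partner, fell from 119, 125 and 102 CPM to 78.9, 82.7 and 65.5 CPM (slope -0.16 ± 0.026, adjusted p = 6.91e-05, edgeR), whereas DNAJA1 and DNAJA3 had slopes of 0.013 ± 0.022 and 0.014 ± 0.015 and were not called.

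The rising DNAJC genes were DNAJC4, DNAJC8, DNAJC10 and DNAJC11. DNAJC10 (ERdj5), an ER reductase with a J-domain, had 228, 233 and 213 CPM at 0 h and 285, 310 and 284 CPM at 4 h (slope 0.11 ± 0.015 log2 per hour, adjusted p = 1.19e-05, edgeR). DNAJC4 had the steepest rise of all chaperone genes (0.21 ± 0.077), but from 13 to 44 counts per library only, with overlapping groups of 1.28, 1.74 and 3.29 CPM at 0 h and 3.91, 3.00 and 4.93 CPM at 4 h. Its adjusted p of 0.0236 (edgeR) became 0.187 without replicate 1 and 0.0527 without replicate 2. Its exons overlap those of NUDT22 on the same strand, so reads of the 2 genes may not have been kept apart.

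In the HSP70 and HSP110 family 2 of 13 tested genes fell, 3 rose and 8 did not pass. The 2 falling genes were HSPA14, a ribosome-associated HSP70, and HSPA1B, a stress-inducible one. HSPA14 had 92.3, 88.2 and 88.4 CPM at 0 h and 62.4, 64.8 and 64.4 CPM at 4 h, so that both groups were tight and far apart (slope -0.12 ± 0.014 log2 per hour, adjusted p = 1.44e-06, edgeR). The 3 rising genes were HSPA9 (mortalin, the mitochondrial HSP70), HSPA4L and HSPA12A. HSPA9 rose from 752, 843 and 794 CPM to 894, 965 and 917 CPM (slope 0.059 ± 0.014, adjusted p = 0.00184, edgeR). With library totals its slope was 0.020 and was not called (adjusted p = 0.217, edgeR). In that scaling 0 of the family's 13 genes rose by edgeR (0 also at an unadjusted p below 0.05), against 18.7% of all tested genes. HSPA4L and HSPA12A, with adjusted p of 0.0226 and 0.0431 (edgeR), lost the call without replicate 1 (0.109 and 0.292) and without replicate 2 (0.0824 and 0.0807), and HSPA12A also without replicate 3 (0.093). A replicate block kept both calls (adjusted p = 0.0082 and 0.0233, edgeR). Scaled to GAPDH plus ACTB, all 13 slopes of the family were below 0.

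HSPA1A and HSPA1B encode the same stress-inducible HSP70 and lie side by side on chromosome 6 (chr6:31815543-31817946 and chr6:31827738-31830254, both on the plus strand and without introns, GENCODE version 44, GRCh38). In their annotated transcripts 4 of 1926 coding bases differ, and 73.8% of the 75-base windows of HSPA1A occur unchanged in HSPA1B, so the split of reads between them is uncertain. They differ in the 3′UTR, from which 1 stretch of 30 bases each is shown, with the pentamer ATTTA in capitals:
HSPA1A (chr6:31817829-31817858): catgcagagatgaATTTAtactgccatctt
HSPA1B (chr6:31830056-31830085): tagaattctttgcATTTAatgttgatactg

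HSPA1B had 57.7, 50.3 and 42.7 CPM at 0 h, 62.8, 49.8 and 38.8 CPM at 1 h, 55.7, 40.8 and 34.4 CPM at 2 h, and 43.6, 33.4 and 29.4 CPM at 4 h. The groups overlapped, since replicate 1 was highest and replicate 3 lowest at each time, but the level at 4 h was below that at 0 h within each replicate. The slope was -0.14 ± 0.047 log2 per hour (adjusted p = 0.0182, edgeR), and without replicate 2 the adjusted p was 0.144. In the paired fit with a replicate block the slope of HSPA1B was -0.14 ± 0.018 (adjusted p = 4.54e-06, edgeR). HSPA1A had 77.2, 72.9 and 58.7 CPM at 0 h and 81.3, 63.1 and 50.6 CPM at 4 h, higher in 1 replicate and lower in the other two, with a slope of -0.028 ± 0.048 (adjusted p = 0.635, edgeR). Its slope with the block was -0.031 ± 0.019 and was not called either (adjusted p = 0.157, edgeR). With the counts of both genes added up, which was decided on once their values were known, the slope without the block was -0.070 ± 0.046 (adjusted p = 0.202, edgeR).

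HSPA5 (BiP), the HSP70 of the ER, and HSPA8 (HSC70), the constitutive cytosolic HSP70, differed between replicates but hardly over time. HSPA5 had 1874, 2324 and 1395 CPM at 0 h, 1875, 2241 and 1332 CPM at 1 h, 1964, 2315 and 1331 CPM at 2 h, and 1933, 2218 and 1304 CPM at 4 h. Replicate 2 was highest and replicate 3 lowest at each time, and the means of the replicates spanned 0.76 on the log2 scale against 0.040 for the means of the times. Its slope was -0.0058 ± 0.054 log2 per hour, and -0.0069 ± 0.0082 in the paired fit with a replicate block (adjusted p = 0.463, edgeR). HSPA8 had 3359, 3837 and 2901 CPM at 0 h and 3808, 3840 and 2907 CPM at 4 h, again with replicate 2 highest (slope 0.020 ± 0.030). Its 4 h level was not called different from that at 0 h (log2 difference 0.064 ± 0.14, adjusted p = 0.707, edgeR), but in the paired fit with a replicate block it was called higher by 0.062 ± 0.027 (adjusted p = 0.0380, edgeR). Within replicates 1, 2 and 3 the log2 difference was 0.18, 0.0013 and 0.0028, so the rise was that of replicate 1.

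In 16 of the 66 genes the replicate means spanned more than the time means. The share among all tested genes was not counted, so whether this is particular to chaperone genes is not known. Besides HSPA5 and HSPA8 the 16 included HSPA1A and HSPA1B, HSPA6, HSPH1, the J-proteins DNAJA1 and DNAJC3 (P58IPK, an ER cofactor of BiP) and the TRiC subunit CCT2. HSPH1, a nucleotide exchange factor of HSP70, had 505, 529 and 469 CPM at 0 h and 526, 548 and 444 CPM at 4 h (slope 0.0074 ± 0.021). DNAJC3 had a slope of -0.017 ± 0.038 and DNAJA1 of 0.013 ± 0.022, both with overlapping groups and adjusted p above the threshold (0.713 and 0.619, edgeR).

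**Figure D2:**
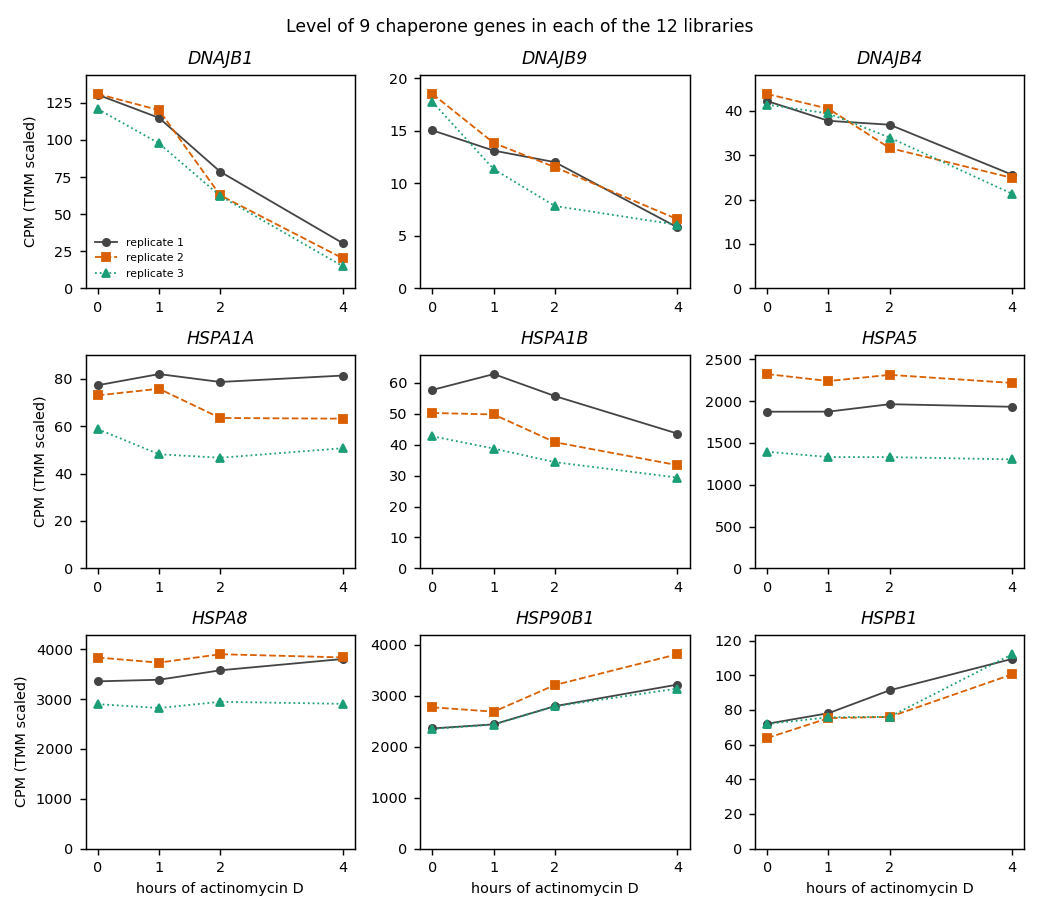
Level (y axis, TMM-scaled CPM from 0) against hours of actinomycin D (x axis) for 9 genes, with 1 line per replicate. DNAJB1 fell from 121 to 131 CPM at 0 h to 14.9 to 30.4 CPM at 4 h, whereas the lines of HSPA5 stayed apart and nearly level; the rises of HSP90B1 and HSPB1 are relative to TMM scaling, and that of HSP90B1 turned to -0.018 log2 per hour when scaled to GAPDH plus ACTB.

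All 3 HSP90 genes rose under TMM scaling and with library totals, but had slopes below 0 when scaled to GAPDH plus ACTB. There HSP90AA1 and HSP90AB1 were called falling. With library totals HSP90AA1 was not called higher at 4 h, and from 0, 1 and 2 h alone the slopes of HSP90AA1 and HSP90AB1 were not called. HSP90B1 (GRP94), the HSP90 of the ER, had 2360, 2775 and 2350 CPM at 0 h and 3221, 3818 and 3143 CPM at 4 h, without overlap (slope 0.12 ± 0.021 log2 per hour, adjusted p = 9.84e-05, edgeR). HSP90AA1, the inducible cytosolic HSP90, had 2825, 3069 and 3107 CPM at 0 h and 3511, 3691 and 3593 CPM at 4 h (slope 0.076 ± 0.015, adjusted p = 3.17e-04, edgeR). HSP90AB1, the constitutive cytosolic HSP90, had 2896, 3091 and 2959 CPM at 0 h and 3773, 3632 and 3487 CPM at 4 h (slope 0.074 ± 0.012, adjusted p = 4.76e-05, edgeR). At 4 h these 3 genes stood at 1.20 to 1.36 times their 0 h level.

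Both parts of the mitochondrial chaperonin rose to similar extents under TMM scaling, which was not called with library totals and turned below 0 with GAPDH plus ACTB. In the last scaling HSPD1 was called falling and HSPE1 was not called. HSPD1 had 1193, 1353 and 1275 CPM at 0 h and 1447, 1650 and 1517 CPM at 4 h, and HSPE1 had 68.3, 80.3 and 77.4 CPM at 0 h and 92.9, 99.6 and 84.8 CPM at 4 h. In both, the libraries at 4 h were all above those at 0 h. The slopes were 0.074 ± 0.016 and 0.089 ± 0.024 log2 per hour (adjusted p = 6.37e-04 and 0.00407, edgeR). The 2 genes lie on opposite strands of chromosome 2, and HSPE1 (chr2:197500140-197503449, plus strand) lies within the annotated span of HSPD1 (chr2:197486584-197516737, minus strand; GENCODE version 44, GRCh38).

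The 8 tested subunits of TRiC, the ring that folds actin and tubulin among others, moved within a narrow range. Their slopes ran from 0.023 for CCT2 to 0.11 for CCT7, with an SD of 0.027 over the 8 genes, against an SD of 0.22 over all tested genes. This was not particular to TRiC, since the SD was 0.026 over the 3 HSP90 genes and 0.011 over the 2 mitochondrial chaperonin genes. CCT3, CCT4, CCT5, CCT6A, CCT7, CCT8 and TCP1 rose and CCT2 did not pass (adjusted p = 0.340, edgeR). With library totals 5 rose. With GAPDH plus ACTB all 8 slopes were below 0, and 7 of them were called falling. CCT7 had 653, 636 and 642 CPM at 0 h and 915, 843 and 822 CPM at 4 h, and TCP1 had 637, 684 and 686 CPM at 0 h and 871, 859 and 806 CPM at 4 h. CCT2 had 733, 794 and 679 CPM at 0 h and 806, 837 and 666 CPM at 4 h, so that its groups overlapped, unlike those of the other 7 subunits. CCT4, with the smallest of the 7 rises (0.043 ± 0.012, adjusted p = 0.00454, edgeR), had an adjusted p of 0.0583 without replicate 1. It was 5.13e-04 with a replicate block (edgeR). The counts of CCT6A may share reads with its pseudogenes CCT6P1 and CCT6P3, which had means of 45.2 and 17.4 counts.

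HSPB1 (HSP27), a small heat shock protein that holds unfolded proteins in soluble complexes, had 72.0, 63.8 and 71.8 CPM at 0 h, 78.1, 75.2 and 75.7 CPM at 1 h, 91.3, 76.0 and 76.0 CPM at 2 h, and 109, 100.5 and 112 CPM at 4 h. Every library at 4 h was above all earlier ones (slope 0.16 ± 0.019 log2 per hour, adjusted p = 2.13e-06, edgeR). Scaled to GAPDH plus ACTB its slope was 0.019 and was not called (adjusted p = 0.467, edgeR). HSPB11 rose by 0.10 ± 0.035 (adjusted p = 0.0169, edgeR), a call that was lost without replicate 2 (adjusted p = 0.0887) and kept with a replicate block (adjusted p = 0.00123, edgeR). HSPB8 had a slope of -0.0068 ± 0.072 at 24 to 55 counts per library.

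Changing the reference moved every slope by nearly the same amount, and differences between genes hardly depend on it. GAPDH and ACTB themselves had slopes of 0.15 ± 0.013 and 0.12 ± 0.025 log2 per hour under TMM scaling. The median slope of the chaperone genes lay above that of all tested genes by 0.011 log2 per hour under TMM scaling, by 0.011 with library totals and by 0.011 with GAPDH plus ACTB. Without replicate 1 it lay above by 0.0052.

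**Figure D3:**
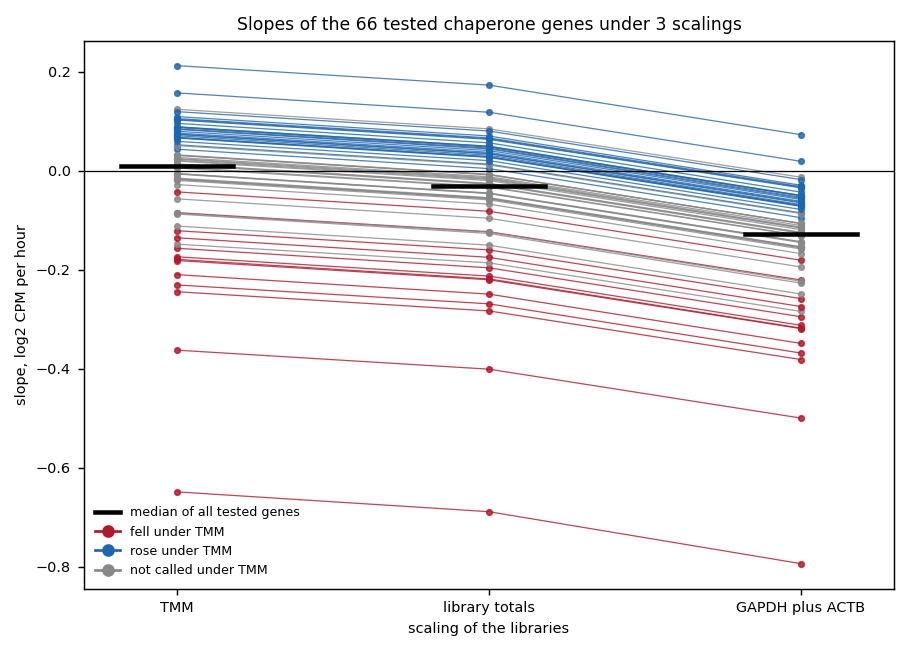
Slopes (y axis, log2 CPM per hour) of the 66 tested genes under TMM scaling, library totals, and GAPDH plus ACTB (x axis), with 1 line per gene and black bars for the median of all tested genes. The lines run nearly parallel; 39 slopes lay above 0 under TMM scaling, 26 with library totals and 2 with GAPDH plus ACTB.

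The first hour was compared with the 3 h that followed. At 1 h against 0 h, DNAJC27, a J-protein with a small GTPase fold, was the 1 chaperone gene called lower by edgeR (2.24% of all tested genes were). Of the chaperone genes 0 were called higher (0.349% of all). At an unadjusted p below 0.05 there were 3 lower and 1 higher, but the share of all tested genes at that threshold was not counted. DESeq2 called 0 in both directions. DNAJC27 went from 7.08, 6.85 and 7.82 CPM at 0 h to 5.17, 4.22 and 4.27 CPM at 1 h, 3.38, 4.15 and 3.19 CPM at 2 h and 4.98, 4.26 and 4.93 CPM at 4 h. Its adjusted p at 1 h was 0.0360 (edgeR), and the call was lost when any 1 of the 3 replicates was left out. Its slope over all times, -0.15 ± 0.063 log2 per hour, had an adjusted p of 0.0501 (edgeR), and with the replicate block it was called at -0.16 ± 0.064 (adjusted p = 0.0386, edgeR). The block also gave a called fall for DNAJB12 and DNAJC22 (slopes -0.056 ± 0.020 and -0.086 ± 0.032).

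The hourly change in the first hour was not found to differ from that of the next 3 h in any of the 66 genes by edgeR or DESeq2. By edgeR 0.175% of all tested genes differed. At an unadjusted p below 0.05 there were 8 chaperone genes, and the share of all tested genes at that threshold was not counted. In the paired fit with a replicate block 13 chaperone genes differed, among 12.8% of all tested genes, and 3 were lower at 1 h (DNAJB1, DNAJB9 and DNAJC27), among 10.5% of all. In 9 of the 13 the first hour lay below the later rate (647 of the 1546 genes called among all tested), as in HSP90AA1 (difference -0.18 ± 0.030 log2 per hour, adjusted p = 1.72e-04, edgeR with the block), HSP90B1, HSPD1, HSPE1, CCT3, CCT8 and DNAJC10. In the other four, DNAJB1, DNAJC5, DNAJA2 and DNAJB12, the first hour lay above it. DNAJB1 changed by -0.21 ± 0.069 in the first hour, a difference of 0.58 ± 0.087 from its later rate (adjusted p = 3.9e-05, edgeR with the block).

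**Figure D4:**
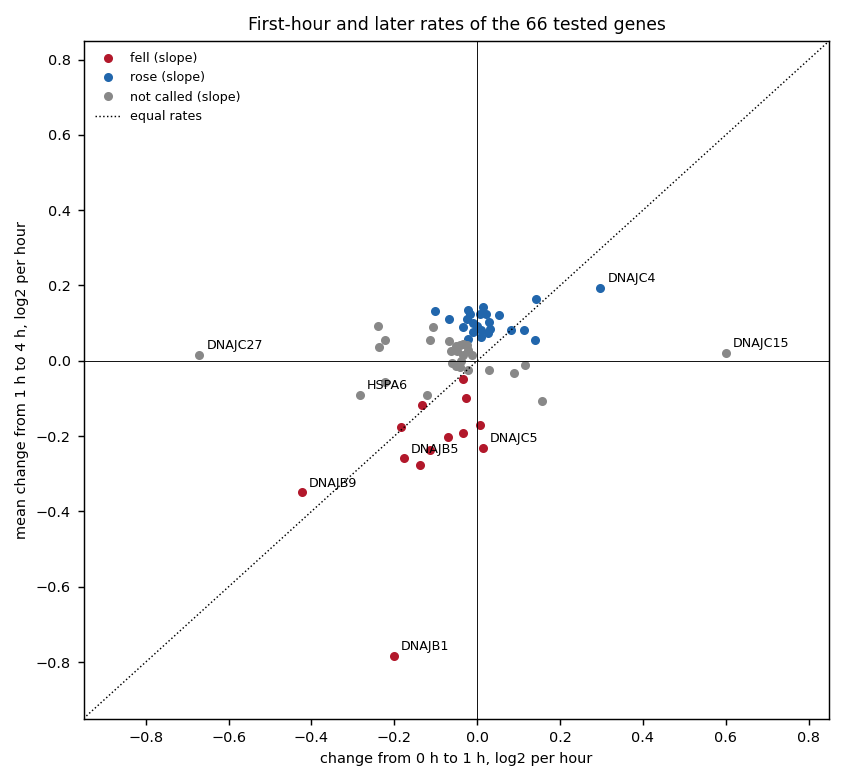
Change from 0 h to 1 h (x axis) against the mean hourly change from 1 h to 4 h (y axis), both in log2 CPM per hour under TMM scaling, for the 66 tested genes coloured by the call of their slope. DNAJB1 lies far below the dotted line of equal rates and DNAJC27 far to its left, while the rising genes cluster near 0 on the x axis; scaling to GAPDH plus ACTB turned the slopes of most rising genes below 0.

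Of 15 genes known for their induction by HSF1, taken from textbook knowledge, 3 fell (DNAJB1, DNAJB4 and HSPA1B), 6 rose (HSP90AA1, HSP90AB1, HSPB1, HSPD1, HSPE1 and HSPA4L) and 6 did not pass (HSPA1A, HSPA4, HSPA6, HSPA8, HSPH1 and DNAJA1), with a median slope of 0.013 log2 per hour. These shares of 20% and 40% stand beside 32.1% falling and 30.7% rising of all tested genes, with a median slope of 0.0093. With library totals 4 of the 15 fell (26.7%) and 3 rose (20%), among 39.1% falling and 18.7% rising of all tested genes. When scaled to GAPDH plus ACTB, HSPB1 alone of the 15 had a slope above 0. HSPA6, the strictly inducible HSP70, was near the detection limit with 3 to 23 counts per library.

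Heat shock factors bind inverted repeats of a GAA unit, and the letters GAA, NN, TTC, NN, GAA were searched on both strands in the promoters of RefSeq (GRCh38.p14, 250 bases before to 50 after each gene start). They occurred in 7 of the 60 tested chaperone genes with a promoter entry (11.7%), in 46 of 9155 tested genes (0.503%) and in 166 of all 27305 promoters (0.608%). The 7 genes were HSP90AA1, HSP90AB1, HSPD1 and DNAJB6, which rose under TMM scaling (and had slopes below 0 with GAPDH plus ACTB), and HSPA6, HSPA8 and DNAJA1, which were not called. From the genes listed above for induction by HSF1, DNAJB1, DNAJB4, HSPA1A, HSPA1B, HSPA4, HSPA4L, HSPB1, HSPE1 and HSPH1 were not among them, for lack of a match or of a promoter entry. Many members were named as heat shock proteins, so the share is not independent of the choice by symbol. HSPA8 had 2 matches, of which 1 is shown, and the stretch of HSPD1 also lies before the annotated start of HSPE1 on the other strand. The match is shown for 4 of the 7 genes. The sequences are in the direction of the gene, and capitals mark the matched letters, including overlapping matches:
HSP90AA1 (chr14:102087112-102087141, minus strand): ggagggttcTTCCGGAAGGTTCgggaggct
HSPA8 (chr11:123062346-123062375, minus strand): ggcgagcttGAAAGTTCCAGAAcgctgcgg
HSPD1 (chr2:197500061-197500090, minus strand): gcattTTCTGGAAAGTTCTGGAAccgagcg
DNAJA1 (chr9:33025267-33025296, plus strand): cgccgggcgGAACTTTCCAGAAcgctcggt

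A match of these letters is a description of the sequence and not a binding site. The same holds for the AU-rich pentamer ATTTA, which was counted in the 3′UTR of the canonical transcript (GENCODE version 44, GRCh38). It was present in 54 of the 65 chaperone genes with such a transcript (83.1%) and in 75.02% of 10821 tested genes with a 3′UTR. By call it was present in 10 of 13 falling, 18 of 23 rising and 26 of 29 uncalled chaperone genes. DNAJB1, the steepest fall, had 0 pentamers in a 3′UTR of 1171 bases, and DNAJB5 and HSPA14 also had 0. Other falling genes held more, with 22 in DNAJB14, 14 in DNAJC21, 8 in DNAJB9 and 7 in DNAJB4. Genes that were not called or rose under TMM scaling also held many. The highest counts were 56 in DNAJC10 (3′UTR of 17332 bases) and 26 in HSPA4L (7859 bases), which both rose. HSPA13, an ER-associated HSP70, had 15, and HSPH1 and HSPA9 had 9 each. The 30 bases of the 3′UTR richest in the pentamer (in capitals) are shown for 3 falling genes and 2 that did not pass:
DNAJB9 (chr7:108574756-108574785, plus strand): aaatgaATTTAttctgttatATTTAtgtaa
DNAJB4 (chr1:78017294-78017323, plus strand): aatatATTTAtgttttaaaaATTTAgtttt
DNAJC16 (chr1:15570361-15570390, plus strand): tctccaagtgtATTTATTTAtatttttttt
HSPA13 (chr21:14371464-14371493, minus strand): agtcaATTTAgtttATTTATTTAaaagata
HSPH1 (chr13:31137209-31137238, minus strand): tATTTAtattttcttttttaaggatATTTA

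Across the 65 genes the slope went with the number of exons (Spearman's rho 0.38; 0.21 over the 11155 tested genes with a transcript) and against the length of the 3′UTR (-0.30; -0.27 over 10821 genes). For the number of pentamers rho was -0.17, against -0.31 over the 10821 genes. For their number per kb of 3′UTR it was 0.037, against -0.24 over 10814 genes. These are descriptions across genes, which share the same 12 libraries and are not independent replicates. DNAJB1, DNAJB9 and DNAJB4 have 3 exons each and DNAJC30 and HSPA1B have 1, while the TRiC genes have 11 to 16.

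Per length, the most abundant chaperone transcript at 0 h was HSPA8 with 1487 ± 207 CPM per kb (SD, n = 3), followed by HSP90AB1 with 1167 ± 39.0, HSP90AA1 with 930 ± 47.4 and HSP90B1 with 897 ± 87.2 CPM per kb. The last 2 did not differ beyond their spread. DNAJB1 stood at 56.9 ± 2.54 CPM per kb and DNAJB9 at 7.10 ± 0.757. Spearman's rho of this level with the slope was 0.37 over the 65 genes; over 11155 tested genes, for the mean count per length over all libraries instead of the 0 h level, it was 0.27. HSPA1A and HSPA1B stood at 29.01 ± 4.03 and 20.0 ± 2.98 CPM per kb, although their split is uncertain.

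**Figure D5:**
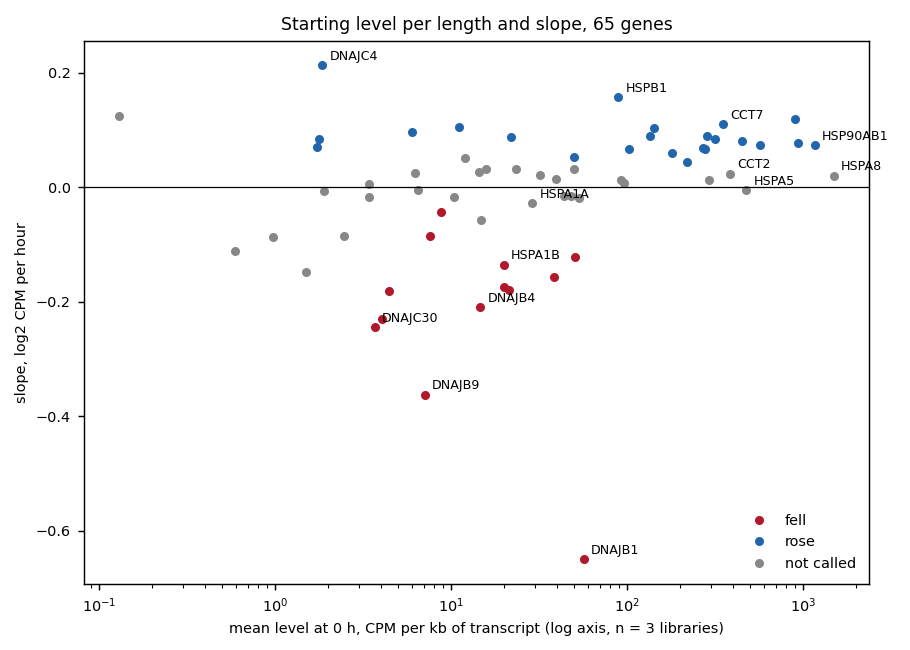
Mean level at 0 h (x axis, CPM per kb of canonical transcript, log axis) against slope (y axis, log2 CPM per hour, TMM scaling) for the 65 genes with a transcript, coloured by call. All red points lie at 56.9 CPM per kb or less, and the genes above 100 CPM per kb have slopes from -0.0058 to 0.12, which turned below 0 with GAPDH plus ACTB.

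Sorted by compartment, the 13 ER members split into 3 falling (DNAJB9, DNAJC16 and DNAJB14), 3 rising (HSP90B1, DNAJB11 and DNAJC10) and 7 that did not pass, among them HSPA5 and DNAJC3. Of the 10 tested mitochondrial members 5 rose (HSPA9, HSPD1, HSPE1, DNAJC4 and DNAJC11), DNAJC30 fell and 4 did not pass. With library totals 1 of the 10 rose, against 18.7% of all tested genes, and with GAPDH plus ACTB 0 did, against 0.931%. Under TMM scaling the shares were 23.1% in each direction for the ER members and 10% falling and 50% rising for the mitochondrial ones. They stand beside the 32.1% and 30.7% of all tested genes. Reads of overlapping genes could also enter these values: exons of 11 of the 65 genes overlap another gene on the same strand and those of 17 a gene on the opposite strand, and the counting of strands is not stated.

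Cochaperones and regulators without these symbols were looked up as a list of 49 genes, 48 of them tested (TTC4 was below the filter). Of these 10 fell (20.8%) and 24 rose (50%), against 32.1% and 30.7% of all tested genes, with a median slope of 0.044 log2 per hour under TMM scaling. With library totals 14 fell (29.2%) and 19 rose (39.6%), among 39.1% falling and 18.7% rising of all tested genes. With GAPDH plus ACTB 30 fell (62.5%) and 1 rose (2.08%), among 64.2% and 0.931% of all. The steepest falls were those of BAG4 (-0.60 ± 0.046 log2 per hour) and BAG5 (-0.57 ± 0.027), nucleotide exchange factors of HSP70, and GRPEL2 (-0.48 ± 0.045), the exchange factor of mitochondrial HSP70. BAG5 had 80.4, 84.1 and 79.9 CPM at 0 h and 18.4, 16.8 and 17.8 CPM at 4 h without overlap, and it was already lower at 1 h (61.8, 59.8 and 56.1 CPM; adjusted p = 0.00411, edgeR).

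The steepest rises in the list were those of AHSA2 (0.27 ± 0.036 log2 per hour), a relative of the HSP90 activator AHSA1, HSF4 (0.23 ± 0.065) and CDC37 (0.16 ± 0.015), which brings kinases to HSP90. With GAPDH plus ACTB the slope of AHSA2 was 0.14 and still called (adjusted p = 0.0115, edgeR), whereas those of HSF4 and CDC37 were 0.093 and 0.025 and were not (adjusted p = 0.287 and 0.179, edgeR). HSF1, the transcription factor named above, had 108, 101 and 98.0 CPM at 0 h and 168, 156 and 165 CPM at 4 h (slope 0.16 ± 0.016, adjusted p = 3.46e-07, edgeR), but with GAPDH plus ACTB its slope was 0.023 and was not called (adjusted p = 0.278, edgeR). TRAP1, the mitochondrial HSP90, and HYOU1, an ER relative of HSP110, both chosen after their values were seen, rose by 0.12 ± 0.012 and 0.14 ± 0.022, close to HSP90B1.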

How the data were processed

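RNA-Seq libraries of A673 cells were grouped by the time label. The table the authors deposited holds unscaled whole-number counts, 1 row for each gene symbol. The submitters' processing notes name FastQC, STAR and hg19. The counter, its annotation and its use of strand are not given in the sources used here, although the library kit was stranded. The paper's account of reads from this kit, which does not name these libraries, uses Salmon and tximport. The counts were fitted with edgeR 4.0.16 in R 4.3.3 (TMM factors, a minimum mean of 10 counts per gene, glmQLFit and glmQLFTest), with time as a number for the slope and as 4 groups for the contrasts. The Benjamini-Hochberg adjustment ran over all 12032 tested genes, the threshold was 0.05, and standard errors came from the F statistic. The early against late difference is the change of the first hour minus the mean hourly change of the next 3 h. The script was tested on simulated data.

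The genes and lists were chosen with earlier results of these data known. Genes named with full values were the leading members of each family, all TRiC subunits, the 10 steepest falls and 6 steepest rises called and of 1 direction in all replicates, the 3 steepest cochaperones each way with HSF1, and GAPDH and ACTB; other genes were named after their values were seen. The genes with called early against late differences were also to be named, and there were none without the block.

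Replicate numbers pair the samples: the deviations of same-numbered libraries from the means of their times correlated at 0.30 to 0.61 in 18 pairs. The 36 other pairs had a mean of -0.21, which is no separate comparison, because the deviations within a time sum to 0. Alternatives were DESeq2 1.42.0 (size factors and Wald test), library totals, GAPDH plus ACTB, a minimum mean of 50 counts or none, a replicate block, and leaving out replicates or times. Transcript features came from GENCODE version 44 (GRCh38), matched by symbol for 65 of 66 tested genes (HSPB11 was not matched), and promoters from RefSeq (GRCh38.p14). No coordinates were converted between builds.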

Additional observations from a re-analysis of the deposited data

How the results depend on the processing

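DESeq2's size factors and Wald test, no count filter and the replicate block changed no slope call among the 43 named genes, and a minimum mean of 50 counts changed none of the 41 it still tested. Without a count filter CCT4 lost its call at 4 h, and there and with the Wald test AHSA2 gained one at 1 h. The slope of DNAJB1 was -0.64 in the paired fit with a replicate block. The counts of chaperone genes moved with the scaling. With library totals 20 fell, 12 rose and 11 were higher at 4 h (39.1%, 18.7% and 17.6% of all tested genes). With GAPDH plus ACTB 52 fell, 0 rose, 51 were lower and 0 higher at 4 h (64.2%, 0.931%, 63.3% and 0.923% of all). From 0, 1 and 2 h alone 7 of 67 fell and 7 rose, 10.4% each, against 18.4% and 12% of all tested genes. That setting had fewer libraries and a shorter range of times. Of the genes lower at 1 h, 0 were called without a count filter and with DESeq2's Wald test, and 3 were called with the replicate block, which also gave 13 early against late differences. The block also called HSPA8 and DNAJB12 at 4 h, the slopes of DNAJB12, DNAJC22 and DNAJC27, and, outside the 66 chaperone genes, AHSA2, CDC37, HSF1, GAPDH and ACTB at 1 h and early against late differences of BAG4 and GAPDH. It changed no other call of a chaperone or named gene. Leaving out 1 replicate gave 0 genes lower at 1 h in each case, and the median of the chaperone genes minus that of all genes was 0.0052 to 0.012 log2 per hour. It gave 11 to 14 falling genes, 16 to 21 higher at 4 h, and 11 to 15 lower at 4 h. Among all tested genes 28.8% to 30.7% fell, 20.9% to 26.2% were higher at 4 h and 27.1% to 30.4% were lower.

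Of the 66 chaperone genes, 13 slopes changed sign with library totals and 37 with GAPDH plus ACTB. Among the named genes these were, with library totals, HSPA8 (-0.020), HSPH1 (-0.032), DNAJA1 (-0.026) and CCT2 (-0.016). With GAPDH plus ACTB the slopes became -0.062 for HSP90AA1, -0.065 for HSP90AB1, -0.018 for HSP90B1, -0.12 for HSPA8, -0.078 for HSPA9, -0.13 for HSPH1, -0.064 for HSPD1, -0.050 for HSPE1, -0.13 for DNAJA1, -0.050 for TCP1, -0.12 for CCT2, -0.058 for CCT3, -0.095 for CCT4, -0.072 for CCT5, -0.070 for CCT6A, -0.029 for CCT7, -0.054 for CCT8, -0.032 for DNAJC10, -0.034 for HSPB11 and -0.017 for ACTB. The cause was not tested.

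With 3 libraries per time point and BH adjustment over 12032 genes, slopes of genes with few counts, such as DNAJC15 and HSPA6, could not be told from 0 at this depth.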
